A study of Mus musculus with 16 samples.

Results

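Etnppl, Cyp17a1, Mmd2, Tuba8 and Sgk1 gave far more array signal in forskolin-treated than in vehicle-treated mouse hepatocytes that carried a control virus, and much less of that difference in hepatocytes that carried an shRNA virus against Hdac4 and Hdac5. They are 5 of the 7746 genes tested and are read by 6 of 24613 probes, found by their symbols in the platform annotation: 1 probe each for the first 4 genes and 2 for Sgk1. All 5 passed the filter on dim probes, 4 of them only through groups in which they were bright. The genes were chosen by their forskolin minus DMSO differences in GFP and shRNA arrays, so every comparison that uses a forskolin array is given as a description, with no test.

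The study used primary hepatocytes of C57BL/6 mice aged 6-8 weeks, and measured total RNA as biotin-labelled cRNA on Illumina bead arrays. There were 16 arrays in 8 groups of 2. The groups joined a virus, a treatment and a time: forskolin or DMSO, its vehicle, for 4 h or 2 h, in cells given an adenovirus with shRNA against Hdac4 and Hdac5 (shHDAC45 here) or a control adenovirus named GFP in the titles and shGFP in the study's design text. All cells were thus cultured and infected. The labels do not say if both arrays of a group stem from separate cultures or mice. The p-values therefore measure the spread between arrays, which may be technical, and the number of arrays limits the precision.

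Forskolin activates adenylyl cyclase and so raises cAMP inside the cell, as glucagon does in liver during fasting. Protein kinase A then phosphorylates CREB, which binds cAMP response elements in gene promoters. HDAC4 and HDAC5 are class IIa histone deacetylases that shuttle between cytoplasm and nucleus under the control of kinases downstream of cAMP, and in hepatocytes they have been linked to FOXO transcription factors and glucose output.

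The 5 genes have unlike roles. Etnppl encodes ethanolamine-phosphate phospho-lyase, which breaks down phosphoethanolamine, a precursor of membrane phospholipid. Cyp17a1 encodes the steroid 17-alpha-hydroxylase/17,20-lyase of androgen and glucocorticoid synthesis. Mmd2 belongs to the PAQR family of membrane proteins, Tuba8 is an isotype of alpha-tubulin, and Sgk1 is a serum- and glucocorticoid-regulated kinase that acts downstream of phosphoinositide signalling.

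The sequences upstream of 4 of the 5 genes are shown because the genes moved together and the cAMP element is a known promoter motif. They are the 250 bases before an annotated start, 5′ to 3′, from the RefSeq promoter table of GRCm38.p6, which had 2 overlapping windows for Etnppl, 1 for Mmd2, 1 for Tuba8, 6 for Sgk1 and 0 for Cyp17a1. Etnppl is chr3:130617198-130617447 on the plus strand, Mmd2 is chr5:142608753-142609002 on the minus strand, Tuba8 is chr6:121210484-121210733 on the plus strand, and the Sgk1 window is chr10:21978422-21978671 on the plus strand. Capitals mark a match to TGACG. Of the 6 Sgk1 windows, the 1 shown is the only 1 with a match. Of the 2 Etnppl windows, the first is shown.
Etnppl: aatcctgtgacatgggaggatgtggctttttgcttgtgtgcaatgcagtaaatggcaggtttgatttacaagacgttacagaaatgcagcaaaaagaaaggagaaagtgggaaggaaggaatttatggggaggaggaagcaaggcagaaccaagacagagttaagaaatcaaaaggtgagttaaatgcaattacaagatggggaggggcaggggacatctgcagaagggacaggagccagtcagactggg
Mmd2: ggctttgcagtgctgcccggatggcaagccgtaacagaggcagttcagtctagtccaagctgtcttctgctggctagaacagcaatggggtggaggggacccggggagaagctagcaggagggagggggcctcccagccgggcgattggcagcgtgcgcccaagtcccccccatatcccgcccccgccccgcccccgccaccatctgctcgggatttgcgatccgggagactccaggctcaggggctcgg
Tuba8: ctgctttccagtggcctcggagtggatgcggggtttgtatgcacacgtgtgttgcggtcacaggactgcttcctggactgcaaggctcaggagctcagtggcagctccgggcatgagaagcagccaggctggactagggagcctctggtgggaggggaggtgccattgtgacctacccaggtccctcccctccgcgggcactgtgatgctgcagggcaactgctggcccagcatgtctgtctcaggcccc
Sgk1: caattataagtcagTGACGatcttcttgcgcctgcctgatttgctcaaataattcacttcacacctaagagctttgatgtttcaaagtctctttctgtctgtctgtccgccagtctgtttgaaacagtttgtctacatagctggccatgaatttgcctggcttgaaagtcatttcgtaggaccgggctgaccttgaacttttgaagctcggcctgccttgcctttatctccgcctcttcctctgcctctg

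Both strands of the 300-base windows, which run from 250 bases before the start to 50 after it, were searched for the cAMP response element TGACGTCA, for its core TGACG, which the full element contains, and for the FOXO site GTAAACA. The only match in the 10 windows of these genes was 1 TGACG in the second Sgk1 window, on the plus strand, beginning at position -236 from the start site. Of all 32851 windows in the table, 1.79% held TGACGTCA, 20.8% held TGACG and 3.65% held GTAAACA. A match describes letters and is not a binding site, and a window without one tells nothing about the factor.

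Median deposited intensity was 103.2 to 117 per array, 8455 to 10082 probes were above background, and each of the 16 arrays correlated best with the other array of its own group (r over the genes tested 0.992 to 0.994 within groups, against 0.886 to 0.986 between groups). The shRNA targets were lower in shHDAC45 than in GFP arrays, by -3.50 ± 0.064 for Hdac5 (log2, SE, limma adjusted p = 1.61e-13) and -1.49 ± 0.10 for Hdac4 (limma adjusted p = 1.96e-08), averaged over the 4 conditions. These averages rest in part on background: under DMSO in shHDAC45 cells, Hdac5 was above it on 0 arrays, and Hdac4 on 0 at 2 h. By the floor described below, Hdac5 was there lower by at least 6.55-fold at 4 h and 6.59-fold at 2 h. Hdac4 was lower by at least 2.00-fold at 2 h. Alternative processing moved the averages as far as -2.22 for Hdac5 and -0.79 for Hdac4. Hdac7, a class IIa enzyme that the virus was not labelled as targeting, was lower under DMSO (-1.22 at 4 h and -0.83 at 2 h) and under forskolin at 2 h (-0.88), with limma adjusted p from 2.48e-06 to 7.95e-05, and did not pass under forskolin at 4 h (0.06 ± 0.12, limma adjusted p = 0.67).

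Of 9 hepatocyte markers on the array, 7 were above background on all 16 arrays, while Alb and Fgb were above it on 0. The log2 of the summed signal of those 7 was 13.01 to 13.84 on the 8 shHDAC45 arrays and 14.59 to 15.52 on the 8 GFP arrays, without overlap, and each of the 7 was lower in shHDAC45 arrays, by -0.97 to -3.33 averaged over the 4 conditions. The summed signal of 5 macrophage markers was 10.64 to 11.06 on shHDAC45 arrays and 11.11 to 11.3 on GFP arrays (Clec4f and Cd5l above background on 0 arrays). That of 6 stellate cell and fibroblast markers was 13.37 to 13.63 on shHDAC45 arrays and 12.95 to 13.18 on GFP arrays (Lrat and Des on 0). For 6 endothelial markers it was 10.57 to 11.28 on shHDAC45 arrays and 10.19 to 10.64 on GFP arrays (Clec4g and Kdr on 0), and for 3 cholangiocyte markers 9.942 to 10.44 on shHDAC45 arrays and 11.44 to 12.73 on GFP arrays (Epcam on 0). The 1 neutrophil marker past the filter ran from 4.89 to 7.068 on shHDAC45 arrays and from 4.852 to 5.592 on GFP arrays (S100a9, Csf3r and Mpo on 0). The part of these shifts in the results on the 5 genes was not tested. In RNA from a whole culture, fewer cells of a type and less RNA per cell cannot be told apart.

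Signals below are normalized log2 values, on which 1 unit is a doubling, made from the deposited intensities as described under the processing. A probe counts as above background on an array where its deposited detection p was under 0.01. Where no array of a group reached that, the group has only an upper bound. A fold is then written as "at least": the mean of the bright group was set against a floor for the dim group, averaged over its arrays, which on each array was the lowest signal above background or the probe's own signal if that was larger.

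Etnppl gave a signal above background only on forskolin arrays of GFP cells. At 4 h its signal was 5.68 and 5.16 on the shHDAC45 forskolin arrays and 5.08 and 5.49 on the shHDAC45 DMSO arrays. On GFP arrays at 4 h it was 10.30 and 10.04 with forskolin and 5.31 and 5.35 with DMSO, which in deposited intensity was 1126.5 and 1136.4 with forskolin and 110.1 and 111.4 with DMSO. At 4 h the GFP forskolin arrays thus stood alone, and the shHDAC45 forskolin arrays overlapped their DMSO arrays. At 2 h the signal was 5.34 and 5.24 on shHDAC45 forskolin arrays, 4.92 and 5.25 on shHDAC45 DMSO arrays, 8.41 and 8.37 on GFP forskolin arrays, and 5.04 on both GFP DMSO arrays. Again just the GFP forskolin arrays were above background. Forskolin over DMSO in GFP cells was at least 11.6-fold at 4 h and at least 3.85-fold at 2 h. In shHDAC45 cells both treatments were not well above background at either time, so no fold is given. Under forskolin, Etnppl was lower in shHDAC45 than in GFP cells by at least 16.7-fold at 4 h and 3.75-fold at 2 h.

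Cyp17a1 kept a small signal under forskolin in shHDAC45 cells at the later time. At 4 h its signal was 6.50 and 6.43 on shHDAC45 forskolin arrays, 5.09 and 5.17 on shHDAC45 DMSO arrays, 10.10 and 10.32 on GFP forskolin arrays, and 4.97 and 5.25 on GFP DMSO arrays. Both forskolin groups were above background at 4 h and overlapped neither each other nor the DMSO arrays. The 2 h signal of Cyp17a1 was 5.42 and 5.67 on shHDAC45 forskolin arrays, 5.31 and 5.32 on shHDAC45 DMSO arrays, 7.09 and 7.20 on GFP forskolin arrays, and 5.14 and 4.94 on GFP DMSO arrays, and only the GFP forskolin group was above background. Forskolin over DMSO at 4 h was at least 1.03-fold in shHDAC45 cells and at least 11.9-fold in GFP cells. The bound at 2 h was at least 1.63-fold in GFP cells. Under forskolin, the shHDAC45 level was 13.4-fold lower than the GFP level at 4 h (log2 -3.74 ± 0.13, SE of the fit over 16 arrays, n = 2 arrays a group) and at least 1.58-fold lower at 2 h.

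Mmd2 resembled Cyp17a1. At 4 h its signal was 6.97 and 6.68 on shHDAC45 forskolin arrays, 4.93 and 5.06 on shHDAC45 DMSO arrays, 10.42 and 10.12 on GFP forskolin arrays, and 5.59 and 5.31 on GFP DMSO arrays. The 2 forskolin groups were again above background and apart from each other. The 2 h signal of Mmd2 was 5.33 and 5.50 on shHDAC45 forskolin arrays, 5.08 and 4.96 on shHDAC45 DMSO arrays, 8.33 and 8.13 on GFP forskolin arrays, and 5.42 and 5.56 on GFP DMSO arrays. At 2 h the shHDAC45 forskolin arrays lay within the range of GFP DMSO arrays of both times, all not well above background. Forskolin over DMSO at 4 h was at least 1.32-fold in shHDAC45 cells and at least 12.4-fold in GFP cells, and at 2 h at least 3.44-fold in GFP cells. Under forskolin, Mmd2 was 10.9-fold lower in shHDAC45 than in GFP cells at 4 h (log2 -3.44 ± 0.15) and at least 3.35-fold lower at 2 h.

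Tuba8 was measured above background in a single group, GFP cells after 4 h of forskolin. At 4 h its signal was 5.52 and 5.49 on shHDAC45 forskolin arrays, 5.01 and 5.10 on shHDAC45 DMSO arrays, 8.48 and 8.42 on GFP forskolin arrays, and 5.16 on both GFP DMSO arrays. The 2 h signal of Tuba8 was 5.14 and 5.09 on shHDAC45 forskolin arrays, 5.05 and 4.99 on shHDAC45 DMSO arrays, 5.64 and 5.81 on GFP forskolin arrays, and 5.12 and 5.17 on GFP DMSO arrays. Tuba8 thus showed a response at 4 h and none that could be measured at 2 h. Forskolin over DMSO in GFP cells at 4 h was at least 3.51-fold, the level under forskolin was at least 5.06-fold lower in shHDAC45 than in GFP cells at 4 h, and GFP forskolin cells had at least 3.27-fold more at 4 h than at 2 h.

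Sgk1 was the only 1 of the 5 above background on all 16 arrays, so its decrease can be measured at both ends. At 4 h its signal on probe ILMN_1213954 was 11.83 and 11.68 on shHDAC45 forskolin arrays, 11.45 and 11.55 on shHDAC45 DMSO arrays, 14.77 and 14.78 on GFP forskolin arrays, and 11.29 and 11.57 on GFP DMSO arrays. The 2 h signal was 12.94 and 13.00 on shHDAC45 forskolin arrays, 11.59 on both shHDAC45 DMSO arrays, 14.26 and 14.46 on GFP forskolin arrays, and 10.44 and 10.49 on GFP DMSO arrays. The shHDAC45 forskolin arrays were far above their DMSO arrays at 2 h and just above them at 4 h, while the GFP forskolin arrays were the highest at both times. Forskolin over DMSO at 4 h was 0.26 ± 0.11 on the log2 scale in shHDAC45 cells (1.20-fold) and 3.35 ± 0.11 in GFP cells (10.2-fold). At 2 h it was 1.38 ± 0.11 in shHDAC45 cells (2.60-fold) and 3.90 ± 0.11 in GFP cells (14.9-fold). Under forskolin, Sgk1 was 8.11-fold lower in shHDAC45 than in GFP cells at 4 h (log2 -3.02) and 2.62-fold lower at 2 h (log2 -1.39).

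**Figure D1:**
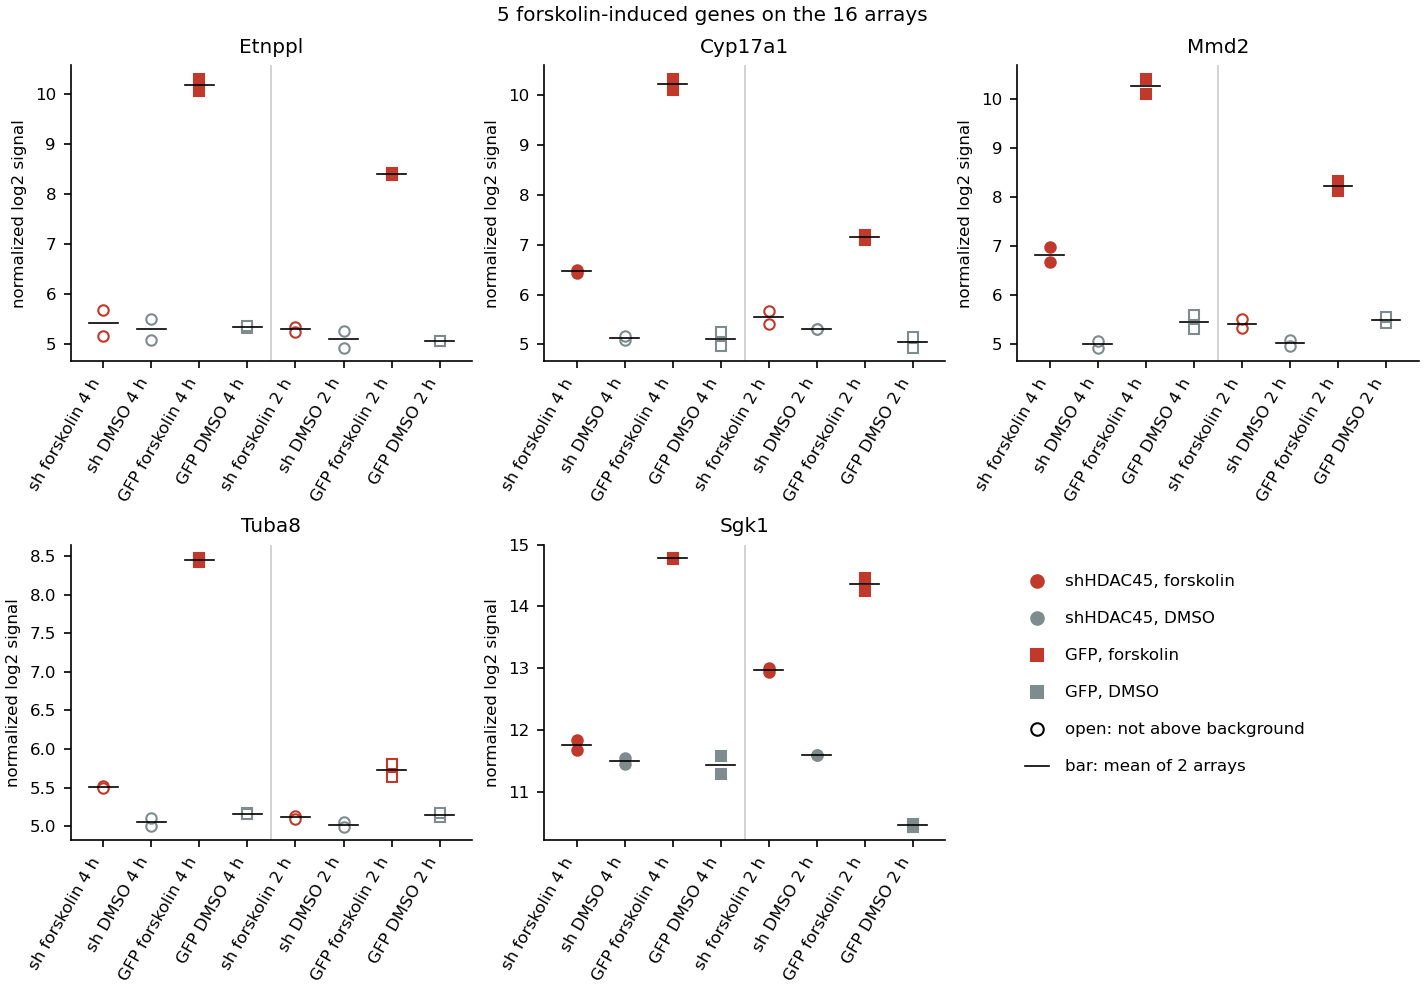
Normalized log2 signal of each gene (y axis) on every array, by group (x axis; shHDAC45 shown as sh), with circles for shHDAC45, squares for GFP, red for forskolin, grey for DMSO, open symbols for arrays not above background and bars for the mean of 2 arrays. GFP forskolin arrays at 4 h reach 10.04 to 10.42 for Etnppl, Cyp17a1 and Mmd2, and Sgk1 is filled, above background, on all 16 arrays.

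From high to low, the order of the 8 group means of Sgk1 was GFP forskolin 4 h (14.78), GFP forskolin 2 h (14.36), shHDAC45 forskolin 2 h (12.97), shHDAC45 forskolin 4 h (11.76), shHDAC45 DMSO 2 h (11.59), shHDAC45 DMSO 4 h (11.50), GFP DMSO 4 h (11.43) and GFP DMSO 2 h (10.46). In that order the arrays of shHDAC45 DMSO 4 h and GFP DMSO 4 h overlapped, and no other neighbours did. For Etnppl the order was GFP forskolin 4 h, then GFP forskolin 2 h, with the other 6 groups not well above background. Cyp17a1 had GFP forskolin 4 h highest, then GFP forskolin 2 h, then shHDAC45 forskolin 4 h, and Mmd2 had the same order of these 3 groups, with no overlap between them. The remaining groups of Cyp17a1, of Mmd2 and of Tuba8 lay at background and have no order.

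The time course under forskolin separated Sgk1 from the others. In GFP cells, the 4 h level minus the 2 h level was 1.78 for Etnppl, 3.06 for Cyp17a1 and 2.04 for Mmd2 on the log2 scale, all SE 0.13 to 0.18, and 0.42 ± 0.11 for Sgk1. In shHDAC45 cells, Sgk1 was lower at 4 h than at 2 h by -1.21 ± 0.11, while Mmd2 was at least 1.27-fold higher at 4 h. In GFP cells under forskolin, Sgk1 was thus 1.34-fold higher at 4 h than at 2 h on this brighter probe, and 1.72-fold (log2 0.78) on its other probe. Cyp17a1 was 8.36-fold and Etnppl 3.44-fold higher at 4 h than at 2 h.

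The forskolin difference in shHDAC45 cells was smaller than in GFP cells for all 5 genes, as the choice of the genes fixes. The difference between those 2 differences (shHDAC45 minus GFP, log2) was, at 4 h, -4.71 ± 0.25 for Etnppl, -3.76 ± 0.18 for Cyp17a1, -3.09 ± 0.16 for Sgk1, -2.99 ± 0.21 for Mmd2 and -2.84 ± 0.13 for Tuba8. The 2 h values were -3.15 ± 0.25 for Etnppl, -2.52 ± 0.16 for Sgk1, -2.34 ± 0.21 for Mmd2, -1.88 ± 0.18 for Cyp17a1 and -0.48 ± 0.13 for Tuba8. Ranked from the largest reduction among 7746 genes, each on its brightest probe, they were 2, 4, 5, 6 and 7 at 4 h in the order just given, and at 2 h Etnppl was 2, Sgk1 5, Mmd2 8, Cyp17a1 13 and Tuba8 558. For all but Sgk1 these values rest in part on groups at background. Across all genes 3.77% passed the limma test in this direction at 4 h and 2.84% at 2 h, a share from which nothing is read here, since these values chose the genes.

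**Figure D2:**
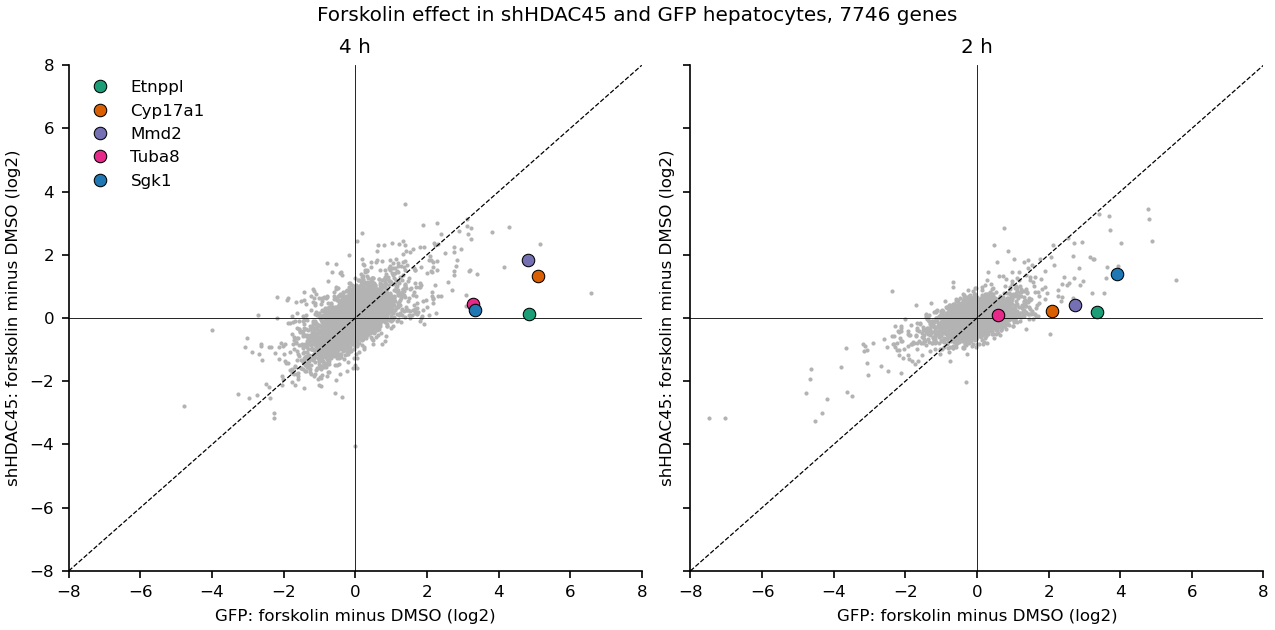
Forskolin minus DMSO (log2) in shHDAC45 cells (y axis) against the same in GFP cells (x axis) for 7746 genes (grey points) at 4 h and 2 h, with the 5 genes in colour and the dashed line marking equal effects. All 5 genes lie below the line, Etnppl at 0.13 in shHDAC45 cells against 4.84 in GFP cells at 4 h, where its shHDAC45 and DMSO signals are at background.

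The part of the forskolin difference that remained is a share between measured signals for Sgk1 alone, since the other 4 genes were at background in at least 1 group of each share. On its brighter probe, the log2 difference of Sgk1 in shHDAC45 cells was 7.78% of that in GFP cells at 4 h and 35.3% at 2 h. On its other probe the shHDAC45 difference at 4 h was negative (-0.47, against 4.84 in GFP cells), so the share at 4 h depends on the probe. These shares come from the values that chose the gene.

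Other strongly induced genes also had smaller forskolin differences in shHDAC45 cells. In GFP cells, 14.4% of genes passed the limma test as higher with forskolin at 4 h and 10.6% at 2 h. Without the 5 genes, 51 genes were higher by 2 or more on the log2 scale at 4 h, and the median of their shHDAC45 difference was 67.0% of the GFP difference (quartiles 35.7% and 83.3%). At 2 h there were 37 such genes, with a median of 49.96% (quartiles 36.0% and 73.9%). These genes were picked by their GFP difference, which is also the divisor, and that favours shares under 100%, so the shares are a description with no test. By size of the GFP difference at 4 h, Cyp17a1 ranked 3, Etnppl 4, Mmd2 5, Sgk1 10 and Tuba8 11 of 7746.

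Values for the dim genes depend on how background is treated. Without background correction, the 4 h forskolin difference in GFP cells was 3.03 for Etnppl, 3.17 for Cyp17a1, 3.07 for Mmd2 and 1.67 for Tuba8, against 4.84, 5.10, 4.82 and 3.29 with it. For Sgk1, bright throughout, the same value was 3.29 without and 3.35 with it. Its forskolin differences depended on which DMSO arrays they were set against, as its DMSO level differed between times in GFP cells: set against DMSO arrays of the other time, an alternative chosen after seeing the data, the difference between viruses was -4.15 at 4 h and -1.46 at 2 h.

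The viruses and times were also compared among the DMSO arrays alone, where the choice of genes made no comparison of its own. The same arrays enter every forskolin difference above, and a low GFP DMSO level enlarges the difference that chose a gene, so the direction of these values is not independent of the choice. Under DMSO at 2 h, Sgk1 was higher in shHDAC45 than in GFP cells, at 11.59 ± 0.00059 against 10.46 ± 0.035 (SD, n = 2 each), a log2 difference of 1.13 ± 0.11 (SE), or 2.19-fold (limma adjusted p = 3.54e-06), where 25.1% of all genes passed as higher. Both shHDAC45 arrays were above both GFP arrays. Under DMSO at 4 h the levels were 11.50 ± 0.069 in shHDAC45 cells and 11.43 ± 0.20 in GFP cells (SD, n = 2 each), and the difference of 0.07 ± 0.11 did not pass the test (limma adjusted p = 0.653). Without GFP DMSO 4 h array A that difference was -0.08, so its sign rests on 1 array.

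In GFP cells under DMSO, Sgk1 was higher at 4 h than at 2 h by 0.97 ± 0.11 (log2, SE), or 1.96-fold (limma adjusted p = 8.81e-05), with no overlap of arrays, where 6.04% of all genes passed as higher. In shHDAC45 cells under DMSO the 4 h minus 2 h difference was -0.09 ± 0.11 (limma adjusted p = 0.714), where 8.64% of all genes passed in either direction. The difference between those time courses was itself past the test, at -1.06 ± 0.16 (limma adjusted p = 0.000611), as did 5.65% of all genes in this direction. The GFP cells at 2 h were thus the group with the lowest Sgk1 level, and the other 3 DMSO groups lay within 11.43 to 11.59.

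Etnppl, Cyp17a1, Mmd2 and Tuba8 were not well above background on any DMSO array and passed the filter through forskolin arrays alone. Comparisons among DMSO arrays therefore have no signal to test for them, and no fold or p is given.

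The second Sgk1 probe, ILMN_1217874, was dimmer and gave larger differences. Its signal at 4 h was 8.45 and 8.23 on shHDAC45 forskolin arrays, 8.68 and 8.94 on shHDAC45 DMSO arrays, 13.42 and 13.45 on GFP forskolin arrays, and 8.56 and 8.64 on GFP DMSO arrays. At 2 h it was 10.24 and 10.28 on shHDAC45 forskolin arrays, 8.65 and 8.82 on shHDAC45 DMSO arrays, 12.64 and 12.68 on GFP forskolin arrays, and 7.37 and 7.50 on GFP DMSO arrays. Forskolin minus DMSO was -0.47 at 4 h and 1.53 at 2 h in shHDAC45 cells, against 4.84 at 4 h and 5.22 at 2 h in GFP cells. The probes thus gave opposite signs for shHDAC45 cells at 4 h (-0.47 on this probe and 0.26 on the brighter one), and the same sign in the other 3 forskolin comparisons. Under DMSO the second probe gave 1.30 for shHDAC45 minus GFP at 2 h (limma adjusted p = 1.89e-06 over 9308 probes), 0.21 at 4 h (limma adjusted p = 0.163), 1.17 for 4 h minus 2 h in GFP cells (limma adjusted p = 3.26e-05) and -1.09 for the difference between time courses (limma adjusted p = 0.000836). The tested DMSO calls of the brighter probe therefore held on both probes.

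**Figure D3:**
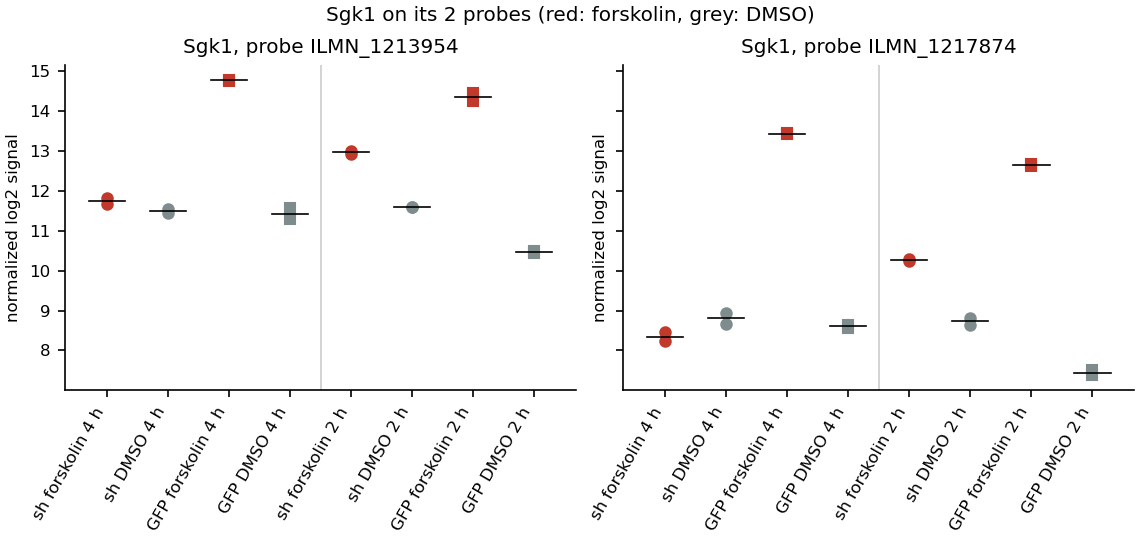
Normalized log2 signal (y axis) of the 2 Sgk1 probes on every array by group (x axis; sh is shHDAC45), red for forskolin and grey for DMSO, with bars at the mean of 2 arrays. On both probes GFP DMSO 2 h is the lowest DMSO group, and at 4 h the shHDAC45 forskolin arrays lie above their DMSO arrays on ILMN_1213954 and below them on ILMN_1217874.

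Lists of genes related to the 5, without the 5 themselves, were tested for the difference of the forskolin effect between viruses. The fit and the shares over all genes include the 5, but no test result is given for them, since these values chose them. Higher and lower in this difference do not mean levels under forskolin, and higher can also be a smaller fall. In a list this short, a count of 0 or 1 lies near the share of all genes, and nothing is read from it. Of all genes, 8.57% passed the limma test in either direction at 4 h and 5.96% at 2 h. Higher effects made up 56% of these calls at 4 h and 52.4% at 2 h, and 78% and 82.5% after median scaling. That scaling put the median of all genes at 0.155 at 4 h and 0.211 at 2 h. Of 14 measured genes of ethanolamine and phosphatidylethanolamine metabolism, 1 passed as higher and 0 as lower at each time: Chpt1, a phosphotransferase of phosphatidylcholine synthesis, at 4 h (0.99 ± 0.22, limma adjusted p = 0.017), and Cept1, which makes phosphatidylcholine and phosphatidylethanolamine, at 2 h (0.90 ± 0.24, limma adjusted p = 0.042). The Cept1 call was lost in 13 of 16 fits that left out 1 array and under 4 other settings (limma adjusted p up to 0.93), and that of Chpt1 in 4 of 16 fits (limma adjusted p up to 0.072). The list's median was 0.09 at 4 h and 0.19 at 2 h, beside 0.0099 and 0.0050 over all genes.

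Of 15 measured genes of steroid hormone synthesis and interconversion, 0 passed the limma test at 4 h (3 at an unadjusted p under 0.05) and 1 passed as higher at 2 h, Hsd17b11 (0.98 ± 0.19, limma adjusted p = 0.0078), with list medians of 0.18 and 0.05. Against DMSO arrays of the other time, an alternative chosen after seeing the data, Hsd17b11 was at 0.14 and did not pass (limma adjusted p = 0.71). Of 4 other measured PAQR genes and of 14 other measured tubulins, 0 passed the limma test at either time. At an unadjusted p under 0.05 it was 1 PAQR gene and 1 tubulin at 4 h, and 0 of either at 2 h, with medians of 0.08 and -0.12 for PAQR genes and -0.18 and -0.0048 for tubulins at 4 h and 2 h. Of 14 SGK kinases, activators and substrates, 1 passed as lower at 4 h and 0 at 2 h: Pdpk1, which encodes the kinase that activates SGK proteins (-0.96 ± 0.15, limma adjusted p = 0.0013), with list medians of 0.00041 and -0.05. The values of Mmd2 and Tuba8 at 4 h, -2.99 and -2.84, lay below every measured member of their families, which the choice of these genes fixes in part.

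Under DMSO the steroid list did differ between viruses: 10 of its 15 genes passed as lower and 0 as higher in shHDAC45 than in GFP cells at 4 h, and 12 as lower and 1 as higher at 2 h (list medians -0.57 and -0.75, beside 0.0059 and 0.0087 over all genes). Of all genes, 26.2% passed as lower and 26.6% as higher at 4 h, and 25.0% as lower and 25.1% as higher at 2 h. The other lists were less one-sided or leaned the other way. At 4 h, 4 ethanolamine genes passed as higher and 4 as lower, and SGK genes gave 3 and 3. Gluconeogenic enzymes gave 2 and 2, PAQR genes 0 and 2, and tubulins 4 and 1. Glucocorticoid-induced and CREB-linked genes each gave 6 and 1. Hepatocyte markers were lower in the same arrays, as given above, and their part in the steroid count was not tested.

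Genes induced through other routes to Sgk1 gave mixed values. Of 12 measured glucocorticoid-induced genes, a class to which Sgk1 belongs, 1 passed as higher and 3 as lower at 4 h, and 2 as higher and 2 as lower at 2 h, with medians of -0.23 and -0.19. Igfbp1, an insulin-like growth factor binding protein, was higher by 2.19 ± 0.42 at 4 h (limma adjusted p = 0.0061), where both GFP groups were not well above background. Klf9, a transcription factor, was lower by -0.87 ± 0.17 at 4 h (limma adjusted p = 0.006), and Errfi1, an inhibitor of EGF receptor signalling, by -0.66 ± 0.14 at 4 h (limma adjusted p = 0.013) and -0.85 ± 0.14 at 2 h (limma adjusted p = 0.0034). Cebpd, another transcription factor, was higher by 0.74 ± 0.15 at 2 h (limma adjusted p = 0.0099). Forskolin lowered Cebpd at 2 h in GFP cells (-0.89), and less so in shHDAC45 cells (-0.15). For Klf9 at 4 h the forskolin effect was -0.89 in shHDAC45 cells and -0.02 in GFP cells. The remaining calls, named after their values were seen, were Dusp1 as lower at 4 h, and Lcn2 as higher and Per1 as lower at 2 h. The forskolin effect on Lcn2 at 2 h was -0.97 in shHDAC45 cells and -1.66 in GFP cells. Against DMSO arrays of the other time, the Errfi1 value at 4 h was 0.03 and lost its sign, and Igfbp1 at 4 h (0.82) and Cebpd at 2 h (0.32) did not pass. Klf9 at 4 h did not pass after median scaling (limma adjusted p = 0.11), and Errfi1 at 4 h was also lost in 3 fits without 1 array and under 2 further settings.

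Early genes linked to CREB differed by time. Of 15 measured, 3 passed as higher and 2 as lower at 4 h (median 0.17), and 0 as higher and 9 as lower at 2 h (median -1.31). Of all genes, 4.80% passed as higher and 3.77% as lower at 4 h, and 3.12% and 2.84% at 2 h. Among the 51 and 37 other strongly induced genes above, some of them on this list, 54.9% passed as lower at 4 h and 73% at 2 h. Those genes were picked by their GFP difference, which favours such calls. Nothing particular to CREB is read from these counts. At 2 h the forskolin effect was lower for Junb by -2.56 ± 0.17 (limma adjusted p = 1.7e-06) and for the phosphodiesterase gene Pde4d by -2.33 ± 0.26 (limma adjusted p = 0.00014). It was also lower for Atf3 by -1.77 ± 0.19 (limma adjusted p = 8.6e-05) and for the nuclear receptor gene Nr4a2 by -1.67 ± 0.13 (limma adjusted p = 7.5e-06). Under DMSO at 2 h, 8 of the 15 passed as higher in shHDAC45 than in GFP cells and 1 as lower (median 0.49), beside 25.1% and 25.0% of all genes. Atf3 was higher there by 1.60 (limma adjusted p = 6.4e-07), near the size of its reduction, and Per1, another of the 9, by 1.64. Under forskolin at 2 h, 1 passed as higher and 8 as lower (median -0.83), beside 25.4% and 24.7% of all genes. At 4 h Junb was higher by 1.55 ± 0.17 (limma adjusted p = 0.00011) and Nr4a2 lower by -0.47 ± 0.13 (limma adjusted p = 0.049), a call lost in 14 of 16 fits that left out 1 array and under 8 other settings (limma adjusted p up to 0.37). Nr4a2 was not well above background in any DMSO group, nor was Pde4d in GFP DMSO cells at 2 h. The remaining calls at 4 h, named after their values were seen, were Fos and Egr1 as higher and Dusp1 as lower. For the 3 genes called higher at 4 h, forskolin lowered the signal in GFP cells: -2.70 for Junb, -1.57 for Egr1 and -0.53 for Fos. In shHDAC45 cells the forskolin effects were -1.15, -0.08 and 0.60 in the same order. Fos was not well above background with forskolin in GFP cells at 4 h. The early genes thus had more calls of a reduction at 2 h than at 4 h, while the reductions of Etnppl, Cyp17a1, Mmd2, Tuba8 and Sgk1 were larger at 4 h than at 2 h. Whether the time courses of the early genes and these 5 differ was not tested.

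Of 10 measured gluconeogenic enzymes, 2 passed as lower and 0 as higher at each time, G6pc and Pck1, the genes of glucose-6-phosphatase and of phosphoenolpyruvate carboxykinase. All DMSO groups of both genes were not well above background, so these differences rest in part on background. G6pc was lower by -5.76 ± 0.20 at 4 h (limma adjusted p = 4.3e-09) and by -2.45 ± 0.20 at 2 h (limma adjusted p = 7.5e-06). Pck1 was lower by -1.61 ± 0.28 at 4 h (limma adjusted p = 0.0029) and by -2.74 ± 0.28 at 2 h (limma adjusted p = 6e-05), with the shHDAC45 forskolin groups also not well above background. The list medians were -0.22 at 4 h and 0.11 at 2 h.

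**Figure D4:**
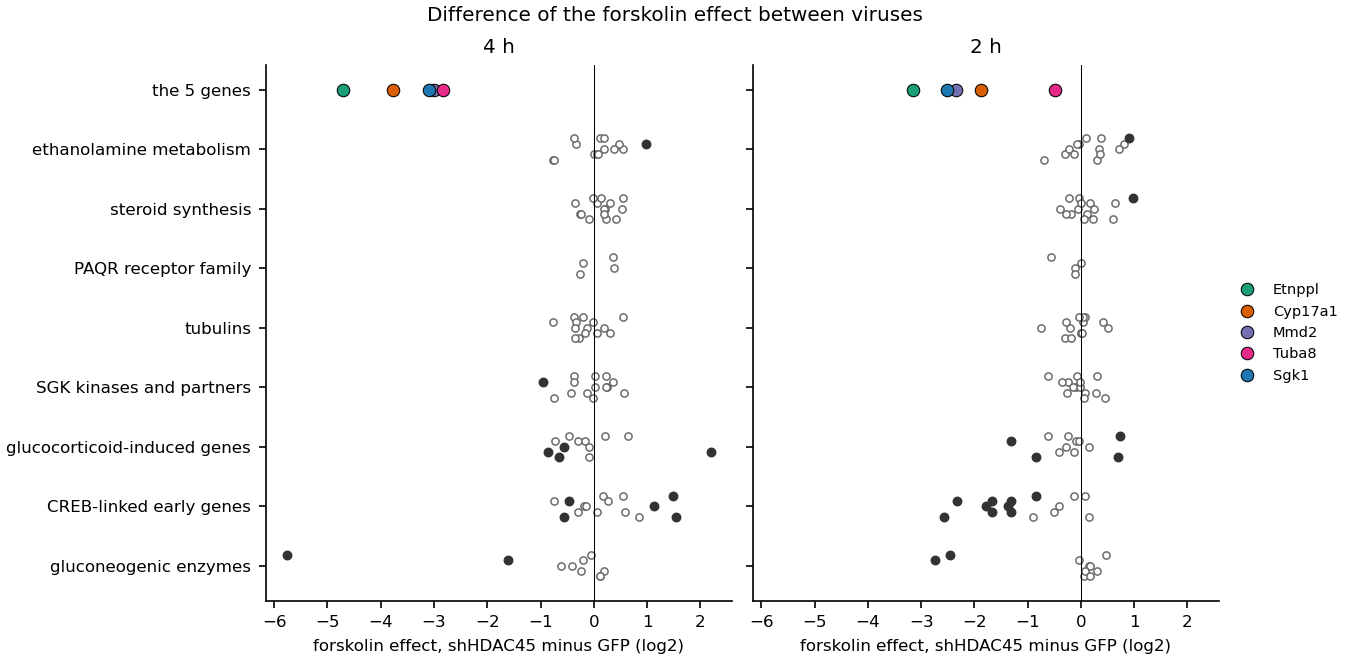
Forskolin effect in shHDAC45 minus that in GFP cells (log2, x axis) for the 5 genes (coloured) and for each gene of 8 lists (y axis) at 4 h and 2 h, with filled points past the limma test at an adjusted p under 0.05 and open points not. The 5 genes lie between -4.71 and -2.84 at 4 h, and 9 of 15 CREB-linked early genes are filled on the left at 2 h.

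Across the 8 group means the 5 genes followed each other, with Pearson r between pairs from 0.733 (Tuba8 and Sgk1) to 0.973 (Cyp17a1 and Mmd2). These r describe 8 means from shared arrays, normalized together, of genes chosen for a like pattern. Among 3491 other genes whose group means ranged over at least 1 log2 unit, those most like Etnppl were Cidea (r = 0.978), Chrna4 (0.973) and Hagh (0.961), and those most like Cyp17a1 were Hagh (0.982), Hs3st6 (0.980) and Gnmt (0.978). Gnmt, which encodes glycine N-methyltransferase, was also the most like Mmd2 (0.979), before Chrna4 (0.973) and Nnmt (0.972). Tuba8, with signal in 1 group, was most like Sstr2 (0.995), Rab3a (0.991) and Acot3 (0.988). Cidea and Chrna4 were above background only on GFP forskolin arrays, 1 at 2 h and 2 at 4 h. Hs3st6 was above it only on the 2 GFP forskolin arrays at 4 h. These genes passed the filter through groups in which the 5 genes are high. Where a gene is at background elsewhere, r is set by its bright groups and describes no likeness over the rest.

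Sgk1 was most like G6pc (r = 0.965), Aldh4a1 (0.952) and Slc25a22 (0.949). The mean signal of G6pc under forskolin was 6.76 at 4 h and 8.40 at 2 h in shHDAC45 cells, and 12.75 at 4 h and 10.87 at 2 h in GFP cells, so that, as for Sgk1, shHDAC45 cells had less at 4 h than at 2 h and GFP cells had more. For Gnmt the forskolin means were 6.53 at 4 h in shHDAC45 cells, and 9.03 at 4 h and 7.17 at 2 h in GFP cells, while its shHDAC45 forskolin 2 h group and all its DMSO groups were not well above background, as for Cyp17a1 and Mmd2. Sstr2, a somatostatin receptor gene, was above background in the GFP forskolin 4 h group alone (8.52), as were Tuba8, Rab3a and Acot3.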

How the data were processed

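The submitters' processing notes name GenomeStudio, and its version and settings are not given here. The deposited non-normalized intensity of each probe is on a linear scale, and the p-value beside it is its detection p, per the file headers. A second deposited table of intensity values had nearly equal column medians (111.7 to 111.8), so it had been normalized by the authors by an unstated method, and served as an alternative. Columns were tied to groups by name, and arrays are called A and B by column letter.

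The function neqc of limma 3.58.1 (R 4.3.3) corrected background by normexp on the detection p-values, added an offset of 16, quantile-normalized the arrays and took log2. Probes with detection p under 0.01 on at least 2 arrays and 1 gene in the platform annotation (9308) were kept, and of the 1293 genes with several probes the brightest was used, leaving 7746 genes. Symbols were looked up in RefSeq's GRCm38.p6 gene table, used for names only: 20968 of 20984 matched and 0 changed. 1 limma model of 8 group means over 16 arrays gave two-sided moderated tests with 8 residual degrees of freedom and 4.6 prior ones. Benjamini-Hochberg adjustment ran over all genes within a contrast, and the threshold was 0.05. The test of the virus-by-forskolin difference at 4 h was checked on simulated data with independent noise and no background floor. That check does not cover genes at background or array differences shared between groups. The 5 genes, the lists and the tests were chosen with earlier results of these data known. Genes named beside them were Hdac4, Hdac5 and Hdac7, up to 4 genes per list with the smallest p in the virus-by-forskolin difference among those past the test, and the 3 genes most correlated with each of the 5. Alternatives changed the background correction, scaling, filter, testing of all probes as single rows, variance model, arrays in the fit, and a replicate block, and left out each array in turn.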

Additional observations from a re-analysis of the deposited data

Results flagged for a closer look

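These results differed between groups by a test of the difference itself. The Sgk1 time course under DMSO differed between viruses, at -1.06 for shHDAC45 minus GFP (4 h minus 2 h, log2, limma adjusted p = 0.00061). Those DMSO arrays also enter the differences that chose Sgk1, so this value is not independent of the choice. In the ethanolamine and steroid lists, the forskolin effect was higher in shHDAC45 than in GFP cells for Chpt1 at 4 h (0.99), Cept1 at 2 h (0.90) and Hsd17b11 at 2 h (0.98). Leaving out 1 array ended the call of Cept1 in 13 of 16 fits and of Chpt1 in 4, and DMSO arrays of the other time ended those of Cept1 (0.053) and Hsd17b11 (0.14). Among the SGK partners it was lower for Pdpk1 at 4 h (-0.96). Among glucocorticoid-induced genes it was lower for Klf9 at 4 h (-0.87) and for Errfi1 at 4 h (-0.66) and 2 h (-0.85), and higher for Igfbp1 at 4 h (2.19) and Cebpd at 2 h (0.74). DMSO arrays of the other time ended the calls of Errfi1 at 4 h (0.03), Igfbp1 (0.82) and Cebpd (0.32), and median scaling that of Klf9. Both GFP groups of Igfbp1 at 4 h were not well above background.

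Among CREB-linked genes the difference changed sign with time for Junb (1.55 at 4 h and -2.56 at 2 h), and was lower for Nr4a2 at 2 h (-1.67) and, with a call lost in 14 of 16 fits without 1 array and under 8 other settings, at 4 h (-0.47), and for Pde4d (-2.33) and Atf3 (-1.77) at 2 h. G6pc (-5.76 at 4 h and -2.45 at 2 h) and Pck1 (-1.61 at 4 h and -2.74 at 2 h) were lower at both times, with all DMSO groups not well above background. Groups of 2 arrays were too small for a test of single arrays that stand apart.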

How the results depend on the processing

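Over 45 values of the 5 genes, each on its brightest probe, and all alternatives run on that probe, 1147 of 1148 kept their sign. The exception was Sgk1 in shHDAC45 against GFP cells under DMSO at 4 h, -0.0769 without GFP DMSO 4 h array A (leaving out 1 array gave -0.0769 to 0.21). Many alternatives could not change a sign, since leaving out an array outside a comparison or changing the variance model leaves the log2 value as it was. Most of the 45 values also use forskolin arrays, on which the genes were chosen, so the count does not measure robustness. The DMSO arrays enter that choice too, so the Sgk1 DMSO calls below are not independent of it. On the second Sgk1 probe, forskolin minus DMSO in shHDAC45 cells at 4 h had the opposite sign (-0.47, against 0.26). Errfi1 at 4 h turned to 0.0304 against DMSO arrays of the other time, which was added after seeing the data. The 3 Sgk1 DMSO calls held under every alternative run, with limma adjusted p from 7e-09 to 0.00044 (viruses at 2 h), 4e-07 to 0.01 (time in GFP cells) and 1.1e-05 to 0.011 (difference of time courses).

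Counts of genes past the test moved more. Fits on the compared arrays alone, hence on fewer samples, passed fewer genes: 300 for the virus-by-forskolin difference at 2 h (462 with all arrays), 355 for DMSO time in shHDAC45 cells (669) and 538 in GFP cells (907). Leaving out 1 array gave 418 to 636 for the virus-by-forskolin difference at 4 h (664 with all; lowest without GFP DMSO 4 h array A, then 431 and 439 without shHDAC45 forskolin 4 h array A and B), 327 to 455 at 2 h, 3365 to 4096 and 3195 to 3913 for the viruses under DMSO at 4 h (4083) and 2 h (3876), 371 to 677 for DMSO time in shHDAC45 cells and 502 to 918 in GFP cells. The last 2 moved by over 1.5 times without any 1 of the 4 arrays compared. No label ties array letters across groups, and they were not taken as pairs: A minus B correlated between groups with r from 0.049 to 0.307, over 0.1 in 25 of 28 pairs of groups. With the letter as a replicate block, 880 genes passed at 4 h and 641 at 2 h for the virus-by-forskolin difference, 4358 and 4209 for the viruses under DMSO, and 841 and 1164 for DMSO time in shHDAC45 and GFP cells.

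Median scaling put higher calls at 30.7% for forskolin in GFP cells at 4 h (44.8% in the main setting) and 13.9% at 2 h (49.5%), and at 35.3% for DMSO time in GFP cells (51.6%). Signal over background limits Etnppl, Cyp17a1, Mmd2 and Tuba8, whose folds are bounds.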
